A study of Homo sapiens with 6 samples.

Results

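Collagens are the rod-shaped proteins of the extracellular matrix, each built from 3 chains that wind around one another. The chain genes were taken here by name: every row of the count table whose symbol reads COL, a number, A and a number, without antisense or pseudogene suffixes. This gave 44 of the 60623 genes counted. Bulk RNA sequencing measured them in 6 libraries of PANC-1, a human pancreatic ductal carcinoma line, by its label, that was grown in DMEM with serum. By their titles, 3 libraries carried a hairpin (shSTN1) aimed at STN1, a subunit of a complex that acts at telomeres, and 3 a control hairpin, with the genotype label WT. The genotype labels of replicates 2 and 3 of the first group read STN2 and STN3 knockdown, so the groups were taken from the titles. Each library is called a biological replicate and nothing further is said of separate cultures, so the p-values reflect how far the libraries of a group lay apart, part of which may be technical.

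The labels were checked before the chains were compared. STN1 did not pass the test between the groups (log2 fold change -0.15, edgeR adjusted p = 0.253). CDKN2A, a locus that PANC-1 is described as lacking, had 11753 reads over the control libraries and 0 over the shSTN1-labelled ones. The directions below are therefore between libraries as labelled, and an effect of the hairpin cannot be told apart from a difference in cells. Of 12 carcinoma epithelium markers, 9 were higher, 0 lower and 3 were not tested in the shSTN1-labelled libraries, where their summed level was 5568 to 5736 CPM against 925 to 988 CPM in control. CPM, the unit of level used throughout, are counts scaled to a common library size. Total counts ran from 17357223 to 23336942 per library.

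Collagen chains fall into families by how the finished molecules assemble. Fibrillar collagens form the tensile fibres of connective tissue, and type IV forms the network of the basement membrane that lies under epithelia. Type VI forms beaded filaments, type VII anchors epithelium to the tissue below, and fibril-associated types bind to the surface of fibres. Multiplexins carry sugar chains in the basement membrane zone, and transmembrane collagens sit in the cell surface.

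The promoter regions of the most abundant chain, COL18A1, and of 2 of the 3 pairs of type IV chain genes that lie head to head, read outward from the stretch between them, are shown first. They were chosen with the values known, and other chains changed more than COL18A1. Sequences are from RefSeq (GRCh38.p14), run 5′ to 3′ on the strand given, and carry in capitals each match, on either strand, to the GC box GGGCGG, to the box named after its letters CCAAT, or to the TATA box, spelled TATAAA. Windows of 250 bases before and 50 bases after the start were found for 32 of the 44 genes.
COL4A1 to COL4A2, chr13:110307158-110307283, all bases between the starts, plus strand: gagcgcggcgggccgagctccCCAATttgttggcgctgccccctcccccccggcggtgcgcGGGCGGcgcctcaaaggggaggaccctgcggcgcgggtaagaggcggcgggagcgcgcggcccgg
COL4A5, chrX:108439588-108439837, upstream of the start, plus strand: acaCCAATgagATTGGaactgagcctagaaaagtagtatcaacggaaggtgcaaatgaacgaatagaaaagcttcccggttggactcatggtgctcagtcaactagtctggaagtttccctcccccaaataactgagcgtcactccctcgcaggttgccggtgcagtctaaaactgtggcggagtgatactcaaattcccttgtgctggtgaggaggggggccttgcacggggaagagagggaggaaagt
COL4A6, chrX:108439459-108439708, upstream of the start nearest COL4A5, minus strand: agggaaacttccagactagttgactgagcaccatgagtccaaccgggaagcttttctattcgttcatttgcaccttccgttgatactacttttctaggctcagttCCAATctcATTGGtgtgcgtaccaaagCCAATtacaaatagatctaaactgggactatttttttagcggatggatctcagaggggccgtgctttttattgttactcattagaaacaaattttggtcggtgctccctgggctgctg
COL18A1, chr21:45404915-45405164, upstream of the first start, plus strand: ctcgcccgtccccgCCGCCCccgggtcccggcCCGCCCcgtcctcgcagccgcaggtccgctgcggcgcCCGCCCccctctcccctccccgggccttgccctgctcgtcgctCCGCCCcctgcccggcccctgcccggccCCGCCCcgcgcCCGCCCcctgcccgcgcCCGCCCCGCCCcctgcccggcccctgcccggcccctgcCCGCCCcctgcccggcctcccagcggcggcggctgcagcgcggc
COL18A1, chr21:45455272-45455521, upstream of the second start, plus strand: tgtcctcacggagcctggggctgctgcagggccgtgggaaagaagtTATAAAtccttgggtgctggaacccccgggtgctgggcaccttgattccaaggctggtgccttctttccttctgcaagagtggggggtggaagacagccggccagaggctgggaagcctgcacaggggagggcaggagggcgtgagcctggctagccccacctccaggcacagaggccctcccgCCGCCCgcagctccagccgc

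The RefSeq starts of COL4A1 and COL4A2 had 126 bases between them, those of COL4A4 and COL4A3 418, and those of COL4A6 and COL4A5 379 (1415 from the other COL4A6 start). The GENCODE 29 positions of COL4A1 and COL4A2, given below, instead overlap from 110305812 to 110307233. The COL4A1 to COL4A2 stretch held 1 GC box and 1 CCAAT box. The COL4A5 window held 2 CCAAT boxes and 0 GC boxes. These 2 boxes lie in bases that the COL4A5 and COL4A6 windows share. Upstream of the first COL18A1 start there were 9 GC boxes in 250 bases, and upstream of the second 1 GC box and 1 TATA box. The 300-base collagen windows numbered 44 but came from 32 genes, some with more than 1 start, so the shares are of windows, not genes. Over these windows, GGGCGG was found in 24 of 44 (54.5%) and in 45.0% of all 35116 RefSeq windows, CCAAT in 14 (31.8%) against 34.6%, and TATAAA in 8 (18.2%) against 11.5%. A match is a run of letters and says nothing of whether a factor binds there.

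Of the 44 chain genes, 37 passed the low-count filter and were tested. Of the 37, 13 were higher and 19 lower with the hairpin label, by edgeR at the adjusted threshold of 0.05, and 5 did not pass. The remaining 7 of the 44 were not tested. Over all genes tested, 74.1% passed, 35.6% higher and 38.5% lower, so that most members passing does not by itself set collagens apart. At least 2-fold differences were found for 11 members higher and 16 lower, against 34.6% of all genes in either direction. The groups did not overlap for 35 of the 37, against 75.6% of all genes. The median log2 fold change was -0.67, also with the genes lacking reads at their bound, and -0.03 over all genes tested. Members that are high in 1 group alone pass the filter because of that group, so these counts describe the members and carry no test of the family.

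**Figure D1:**
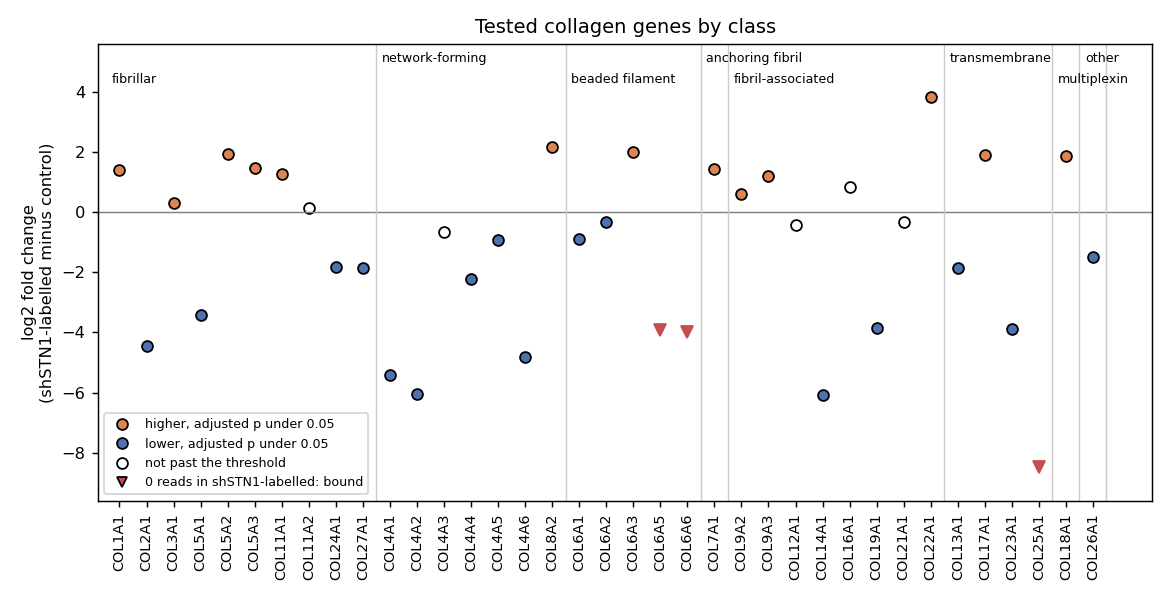
Log2 fold change (shSTN1-labelled minus control, edgeR) of the 37 tested collagen genes, grouped by class; triangles mark the lower limit of the fall for 3 genes without reads in the shSTN1-labelled libraries. Type IV chains lie below 0, whereas fibrillar chains lie on both sides, from -4.46 for COL2A1 to 1.93 for COL5A2.

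Type XVIII was the most abundant collagen in every library. COL18A1 (ENSG00000182871.16, chromosome 21, positions 45405137 to 45513720 in GRCh38) encodes the basement membrane multiplexin whose C-terminal fragment is endostatin. It had 9269, 11646 and 9875 reads in control replicates 1 to 3 and 37114, 39783 and 32195 in the shSTN1-labelled ones. All 3 shSTN1-labelled libraries were above all 3 controls. In bulk libraries more cells with a transcript and more RNA per cell cannot be told apart. The level rose from 501 ± 47.8 to 1821 ± 7.37 CPM (SD, n = 3 each), a log2 fold change of 1.86 (edgeR adjusted p = 5.84e-22). Its exons share 16.4% of their bases with SLC19A1 on the opposite strand, a gene that was lower (log2 fold change -0.62, edgeR adjusted p = 6.55e-09). The antisense genes COL18A1-AS1 and COL18A1-AS2 had 6 and 0 reads in control and 38 and 20 in the shSTN1-labelled libraries. The strand setting of the counting is not given in the sources used here. COL15A1, the other multiplexin, had 15 control reads against 6 and was not tested.

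COL18A1 took 34.4% ± 2.08 of all collagen reads in control and 63.4% ± 0.341 in the shSTN1-labelled libraries. Collagen genes took 0.146%, 0.164% and 0.156% of counted reads in control replicates 1 to 3 and 0.264%, 0.268% and 0.272% in the shSTN1-labelled ones. The groups did not overlap, and the exact permutation test (two-sided) gave p = 0.1, the smallest that 3 libraries against 3 allow. Without COL18A1, an alternative added after the data were seen, the share was 0.102% ± 0.00512 in control and 0.0981% ± 0.00210 in the shSTN1-labelled libraries (exact permutation p = 0.3). On a per-length scale (CPM per kb of exon), COL18A1 made up 32.6% ± 2.04 of the summed collagen level in control and 59.6% ± 0.449 in the shSTN1-labelled libraries. Fibrillar chains held 24.2% ± 1.42 and 25.0% ± 0.189. The network-forming chains went from 8.80% ± 0.454 to 0.720% ± 0.0396 and the beaded filament chains from 20.4% ± 0.959 to 6.59% ± 0.250.

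**Figure D2:**
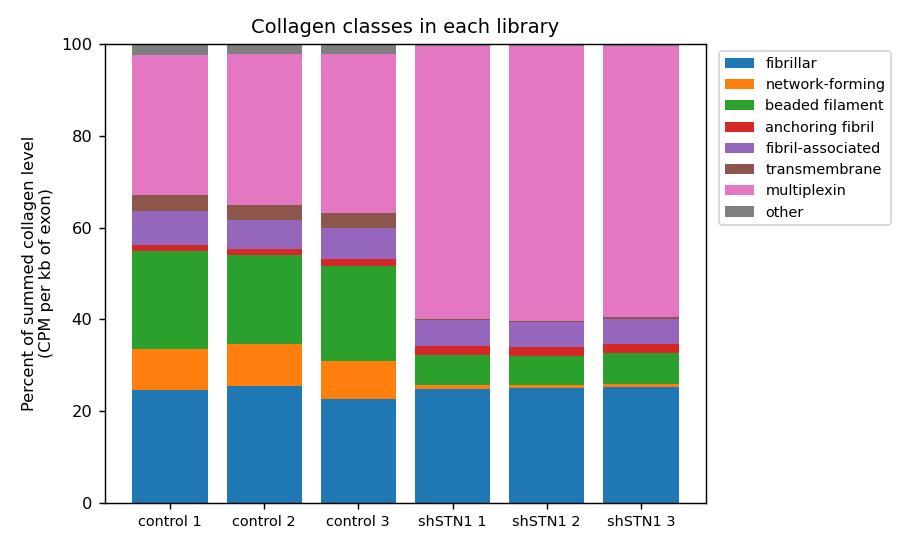
Percent of the summed collagen level (CPM per kb of exon) held by each collagen class in each of the 6 libraries. The multiplexin segment, almost all COL18A1, is the largest in every bar and wider in the 3 shSTN1-labelled libraries, and the network-forming segment narrows from 8.80% to 0.720%.

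Type IV, the core of basement membranes, was lower as a whole. Its 6 chains summed to 243 ± 17.3 CPM in control, against 20.3 ± 0.607 CPM in the shSTN1-labelled libraries, a ratio of 12.0. COL4A1 and COL4A2 encode the chains of the widespread form, in which a pair of the first joins 1 of the second. COL4A2 (ENSG00000134871.19, chromosome 13, positions 110305812 to 110513209) had 2746, 3479 and 2675 reads in control and 43, 58 and 30 in the shSTN1-labelled libraries. COL4A1 (ENSG00000187498.16, chromosome 13, positions 110148963 to 110307233) had 925, 1154 and 748 reads against 19, 25 and 19. Neither gene's groups came near each other. COL4A2 fell from 144 ± 11.8 to 2.15 ± 0.480 CPM (a log2 change of -6.04 with edgeR adjusted p = 4.19e-29) and COL4A1 from 45.6 ± 5.62 to 1.05 ± 0.111 CPM (-5.43, edgeR adjusted p = 9.87e-25). These are the pair that share the 126 bases printed above. Their proportion shifted too: per length, COL4A1 was 0.41 times COL4A2 in control and 0.65 times in the shSTN1-labelled libraries, without overlap. Of the 9 other tested genes within 1 Mb of COL4A2, 4 were higher, 0 lower and 5 did not pass, with a median log2 fold change of 0.22. For this and the neighbour counts below, the shares over all genes tested were 35.6% higher and 38.5% lower, with a median of -0.03.

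The other head-to-head pairs did not move as evenly. COL4A6 (ENSG00000197565.15, chromosome X, positions 108155607 to 108439497) had 429, 488 and 358 control reads and 18, 13 and 13 in the shSTN1-labelled libraries. COL4A5 (ENSG00000188153.13, chromosome X, positions 108439844 to 108697545), the Alport syndrome gene on the same chromosome, had 618, 675 and 496 reads against 327, 314 and 271. Both were lower in every shSTN1-labelled library than in any control. COL4A6 fell by 4.80 on the log2 scale (edgeR adjusted p = 2.8e-21) and COL4A5 by 0.93 (edgeR adjusted p = 1.3e-09). Per length, COL4A5 stood at 1.10 times COL4A6 in control and 16.4 times in the shSTN1-labelled libraries, with log2 ratios of 0.13 ± 0.033 and 4.03 ± 0.206. The ratio did not overlap between groups and is given as a description. Around COL4A6, 9 of 13 other tested genes within 1 Mb were lower and 3 higher, with a median of -2.02.

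COL4A3 and COL4A4, chains of the kidney glomerular form, were scarce. COL4A4 had 51, 47 and 39 reads in control and 7, 12 and 9 in the shSTN1-labelled libraries (log2 fold change -2.24, edgeR adjusted p = 1.29e-06). COL4A3 had 17, 20 and 22 against 15, 11 and 10, and did not pass (-0.67, edgeR adjusted p = 0.128). Per length the order in control was COL4A2 at 7.48 ± 0.610 CPM per kb, COL4A1 at 3.09 ± 0.382, COL4A5 at 2.44 ± 0.152, COL4A6 at 2.22 ± 0.131, COL4A4 at 0.221 ± 0.0199 and COL4A3 at 0.106 ± 0.0216. COL4A5 was slightly above COL4A6 in each control library, with log2 ratios of 0.17, 0.11 and 0.12 in replicates 1 to 3. In the shSTN1-labelled libraries COL4A5 came first at 1.28 ± 0.0675 CPM per kb, and COL4A2 followed at 0.112 ± 0.0249. The 5 chains below COL4A5 lay between 0.0464 and 0.112 CPM per kb, where COL4A1, COL4A3 and COL4A6 were within their spread of one another.

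**Figure D3:**
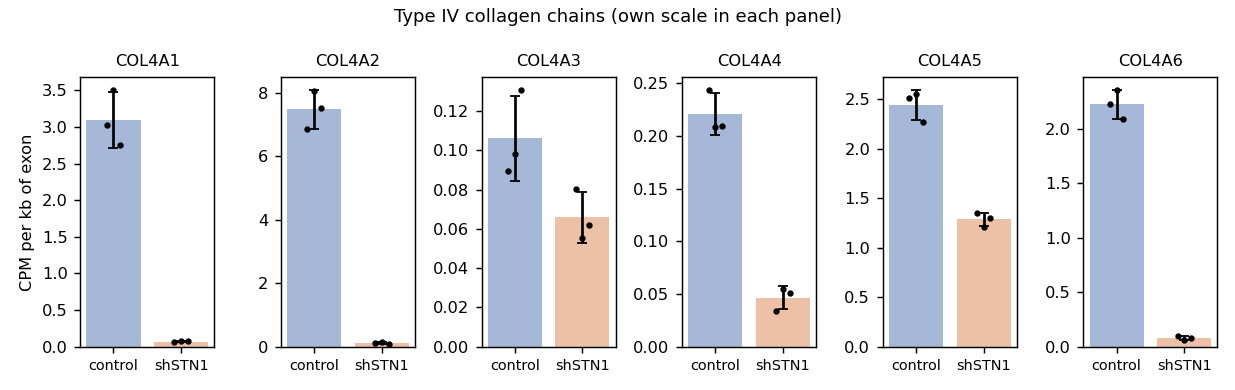
Level per length (CPM per kb of exon) of the 6 type IV chains; bars are means of 3 libraries, error bars SDs and points single libraries, with an axis of its own in each panel. COL4A1, COL4A2 and COL4A6 fall close to 0 in the shSTN1-labelled libraries, whereas COL4A5 falls from 2.44 to 1.28 CPM per kb.

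The other network-forming chains, of types VIII and X, were low. COL8A2, a chain of the endothelial and corneal type VIII network, rose from 0.804 ± 0.207 to 3.64 ± 0.508 CPM (a log2 change of 2.16 with edgeR adjusted p = 2.67e-08). Its partner COL8A1 had 21, 11 and 4 reads in control against 0, 2 and 0 and was not tested (the low-count filter left it out), with a ratio of 17.5 (95% exact interval 4.51 to 150, counting error only). COL10A1, the collagen of hypertrophic cartilage, had 9 reads in control and 32 in the shSTN1-labelled libraries and was not tested.

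Among fibrillar collagens, chains of types I, V and XI rose while type II and others fell. COL5A2 (ENSG00000204262.14, chromosome 2, positions 189031896 to 189225312), a chain that helps start fibre assembly, was the most abundant fibrillar chain. It had 2693, 3119 and 2058 reads in control and 9876, 10514 and 8618 in the shSTN1-labelled libraries. All 3 of the latter were above all controls, and the level rose from 127 ± 14.2 to 484 ± 4.07 CPM (a log2 change of 1.93 with edgeR adjusted p = 6.15e-22). COL5A1, with which COL5A2 forms the common type V molecule, went the other way. Its reads were 396, 524 and 410 against 32, 56 and 34, a fall from 21.6 ± 2.26 to 2.02 ± 0.507 CPM (a log2 change of -3.40 with edgeR adjusted p = 1.04e-18). Per length, COL5A2 was 8.83 times COL5A1 in control and 368 times in the shSTN1-labelled libraries. COL5A3 stayed under 1 CPM, at 0.272 ± 0.176 against 0.777 ± 0.214 CPM (a log2 change of 1.49 with edgeR adjusted p = 0.00992). It did not pass without control replicate 1 (edgeR adjusted p = 0.0868) or without shSTN1 replicate 2 (0.0724), and its log2 fold change was 2.07 without control replicate 2.

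COL1A1, the main chain of type I, had 910, 1119 and 854 reads in control and 2403, 2681 and 2310 in the shSTN1-labelled libraries. The groups stood apart, at 46.7 ± 3.16 and 124 ± 6.91 CPM (a log2 change of 1.40 with edgeR adjusted p = 2.12e-17). COL1A2, the partner chain of the usual type I molecule, had 1 read over the control libraries and 2 over the shSTN1-labelled ones. It was thus at the floor in both groups, a level that allows no fold. COL3A1, the type III chain found beside type I in soft tissues, had 403, 604 and 406 reads against 561, 590 and 521. Its groups were close, at 22.8 ± 3.88 and 28.0 ± 1.37 CPM (a log2 change of 0.29 with edgeR adjusted p = 0.0159). It did not pass without control replicate 1 (log2 fold change 0.17, edgeR adjusted p = 0.179), control replicate 3 (0.0635) or shSTN1 replicate 3 (0.0535).

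The cartilage chains split. COL2A1 (ENSG00000139219.19, chromosome 12, positions 47972965 to 48004554), the main fibre of cartilage, had 1381, 1608 and 1315 reads in control and 68, 68 and 54 in the shSTN1-labelled libraries. It fell from 69.9 ± 2.99 to 3.17 ± 0.136 CPM (a log2 change of -4.46 with edgeR adjusted p = 3.81e-26). COL11A1, the type XI chain that limits fibre width, went up. It had 469, 512 and 400 reads against 1073, 1237 and 926, or 22.4 ± 0.638 against 53.9 ± 2.42 CPM (a log2 change of 1.27 with edgeR adjusted p = 1.8e-14). COL11A2 stood at 2.89 ± 0.150 and 3.21 ± 0.272 CPM with overlapping groups (edgeR adjusted p = 0.544). Of 6 chondrocyte markers, 2 were higher, 3 lower and 1 was not tested. On the log2 scale SOX9 (2.22) and MATN3 (2.09) rose, and COMP (-1.22), SOX5 (-3.10) and SOX6 (-2.75) fell. The 6 markers summed to 58.8 to 84.7 CPM in control, against 246 to 300 CPM in the shSTN1-labelled libraries, most of it SOX9. ACAN, which encodes aggrecan, was at 0.360 CPM in control against 0.149 CPM in the shSTN1-labelled libraries. The part of the cell make-up in the cartilage chains was not tested.

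The minor fibrillar chains of types XXIV and XXVII were both lower. COL27A1 had 834, 987 and 674 reads in control and 227, 230 and 207 in the shSTN1-labelled libraries (40.3 ± 3.82 against 11.1 ± 0.605 CPM, a log2 change of -1.86 with edgeR adjusted p = 8.76e-17). COL24A1 fell from 2.52 ± 0.427 to 0.712 ± 0.268 CPM (a log2 change of -1.84 with edgeR adjusted p = 7.55e-06). Of the 11 fibrillar genes, 5 were thus higher, 4 lower, 1 did not pass and 1 was not tested. The shares over all genes tested were 35.6% higher and 38.5% lower.

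Fibroblasts and pancreatic stellate cells are the usual source of fibrillar collagen in a tumour, so their markers were read beside these chains. Of 10 such markers, 1 was higher, 2 lower, 2 did not pass and 5 were not tested. The sum was 16.4 to 18.6 CPM in control against 24.1 to 26.5 CPM in the shSTN1-labelled libraries, most of it THY1 at 10.1 and 21.3 CPM. DCN, which encodes decorin, had 6 reads in control and 0 in the shSTN1-labelled libraries, and FAP 1 and 2 reads. Of 6 endothelial markers, 0 were higher, 1 lower, 1 did not pass and 4 were not tested. They summed to 2.17 to 3.00 CPM in control against 2.04 to 2.59 CPM in the shSTN1-labelled libraries, with PECAM1 at 0 in both groups. Of 5 leukocyte markers, 1 was higher (CORO1A) and 4 were not tested. They summed to 10.8 to 13.9 and 15.3 to 18.9 CPM, with CD3E at 0 in both groups and PTPRC at 0 in control. The part of other cell types in the fibrillar results was not tested.

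Type VI filaments, which link cells to the surrounding matrix, are built from 1 chain each of COL6A1, COL6A2 and COL6A3 in most tissues. COL6A1 had 2597, 2758 and 2287 reads in control and 1388, 1415 and 1239 in the shSTN1-labelled libraries. It fell from 124 ± 0.808 to 67.6 ± 2.74 CPM (a log2 change of -0.88 with edgeR adjusted p = 4.5e-13). COL6A2, its neighbour on chromosome 21, fell less, from 1444, 1520 and 1424 reads to 1174, 1185 and 1070 (71.6 ± 4.91 against 57.4 ± 3.22 CPM, a log2 change of -0.32 with edgeR adjusted p = 5.69e-04). COL6A3 was scarce in both groups but rose, from 30, 33 and 30 reads to 132, 133 and 97 (log2 fold change 1.99, edgeR adjusted p = 3.35e-10). Per length, COL6A1 was 301 times COL6A3 in control and 41.4 times in the shSTN1-labelled libraries. The COL6A1 to COL6A2 ratio was 1.75 in control and 1.19 in the shSTN1-labelled libraries. COL6A5 and COL6A6, chains that can replace COL6A3, had 47 and 49 reads over the control libraries and 0 over the shSTN1-labelled ones. They were at least 15.2-fold and 15.9-fold lower against a floor of 3 reads over the group (edgeR adjusted p = 7.54e-07 and 5.27e-07). The pseudogene COL6A4P1 had 32 control reads and 13 in the shSTN1-labelled libraries.

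Type VII, the anchoring fibril of stratified epithelium, rose. COL7A1 (ENSG00000114270.17, chromosome 3, positions 48564073 to 48595267) had 600, 618 and 548 reads in control and 1623, 1658 and 1341 in the shSTN1-labelled libraries. Its level went from 28.7 ± 1.03 to 77.1 ± 1.87 CPM (a log2 change of 1.42 with edgeR adjusted p = 8.78e-17). Of the 44 other tested genes within 1 Mb of COL7A1, 8 were higher and 29 lower. COL17A1, the transmembrane collagen of hemidesmosomes in the same epithelia, had 3, 3 and 10 reads against 15, 22 and 22 and rose within levels under 1 CPM (a log2 change of 1.89 with edgeR adjusted p = 0.00126). Without control replicate 3, which held 10 of its 16 control reads, the log2 fold change was 2.77.

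The remaining transmembrane chains were lower. COL25A1 (ENSG00000188517.16, chromosome 4, positions 108808725 to 109302752) encodes a membrane collagen of neurons and developing muscle innervation. It had 368, 460 and 273 reads in control (17.7 ± 2.89 CPM) and 0 in every shSTN1-labelled library, at least 357-fold lower against the floor of 3 reads over the group (edgeR adjusted p = 1.21e-20). This was the only member at 5 CPM or more in a group that lacked reads in the other. Of the 15 other tested genes within 1 Mb, 12 were lower, 0 higher and 3 did not pass, with a median of -0.91. COL13A1, a membrane collagen of the neuromuscular junction, fell from 358, 366 and 299 reads to 102, 103 and 71 (16.6 ± 0.550 against 4.58 ± 0.492 CPM, a log2 change of -1.85 with edgeR adjusted p = 1.13e-13). COL23A1 had 102, 79 and 97 reads against 10, 0 and 8 (log2 fold change -3.89, edgeR adjusted p = 1.18e-10). This was -3.25 without shSTN1 replicate 2, the library with 0 reads, and -4.74 with limma-voom.

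Fibril-associated collagens moved both ways. COL14A1 (ENSG00000187955.12, chromosome 8, positions 120059780 to 120372036), which coats type I fibres, had 472, 559 and 403 reads in control and 5, 10 and 5 in the shSTN1-labelled libraries. This fall, from 23.2 ± 1.64 to 0.329 ± 0.114 CPM (a log2 change of -6.09 with edgeR adjusted p = 1.32e-22), was the largest of the class. COL9A3, a chain of the type IX collagen that decorates cartilage fibres, rose from 749, 748 and 663 reads to 1705, 1703 and 1475 (35.1 ± 1.45 against 81.7 ± 3.16 CPM, a log2 change of 1.22 with edgeR adjusted p = 3.06e-15). Around COL9A3, 35 of 56 other tested genes within 1 Mb were also higher and 5 lower, with a median of 0.55. Its partner COL9A2 had 136, 80 and 131 reads against 175, 190 and 154 (log2 fold change 0.61, edgeR adjusted p = 0.00308). Control replicate 2 was the low library, and without it COL9A2 did not pass (0.33, edgeR adjusted p = 0.0625). COL9A1, the third chain of type IX, had 17 control reads and 6 in the shSTN1-labelled libraries and was not tested.

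The other fibril-associated chains had lower levels, all under 5 CPM. COL22A1, known from tissue junctions such as muscle and tendon, had 4, 2 and 0 reads against 24, 39 and 25 (log2 fold change 3.83, edgeR adjusted p = 2.64e-07), and the log2 fold change was 4.73 without control replicate 1. COL19A1 went from 23, 33 and 23 reads to 4, 1 and 0 (-3.85, edgeR adjusted p = 7.04e-07), with a log2 fold change of -5.35 without shSTN1 replicate 1. COL12A1 stood at 4.41 ± 0.345 CPM in control against 3.31 ± 0.463 CPM in the shSTN1-labelled libraries, without overlap, and did not pass (-0.42, edgeR adjusted p = 0.0519). It passed with RLE scaling (edgeR adjusted p = 0.0484), upper-quartile scaling (0.0364) and without shSTN1 replicate 3 (0.0387). COL16A1 (0.83, edgeR adjusted p = 0.0787) and COL21A1 (-0.32, edgeR adjusted p = 0.477) did not pass, and COL20A1 had 35 reads against 16 and was not tested. Outside these classes, COL26A1 fell from 268, 292 and 240 reads to 78, 90 and 104 (13.0 ± 0.0845 against 4.61 ± 1.13 CPM, a log2 change of -1.51 with edgeR adjusted p = 2.25e-10), and COL28A1 had 6 reads against 1.

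**Figure D4:**
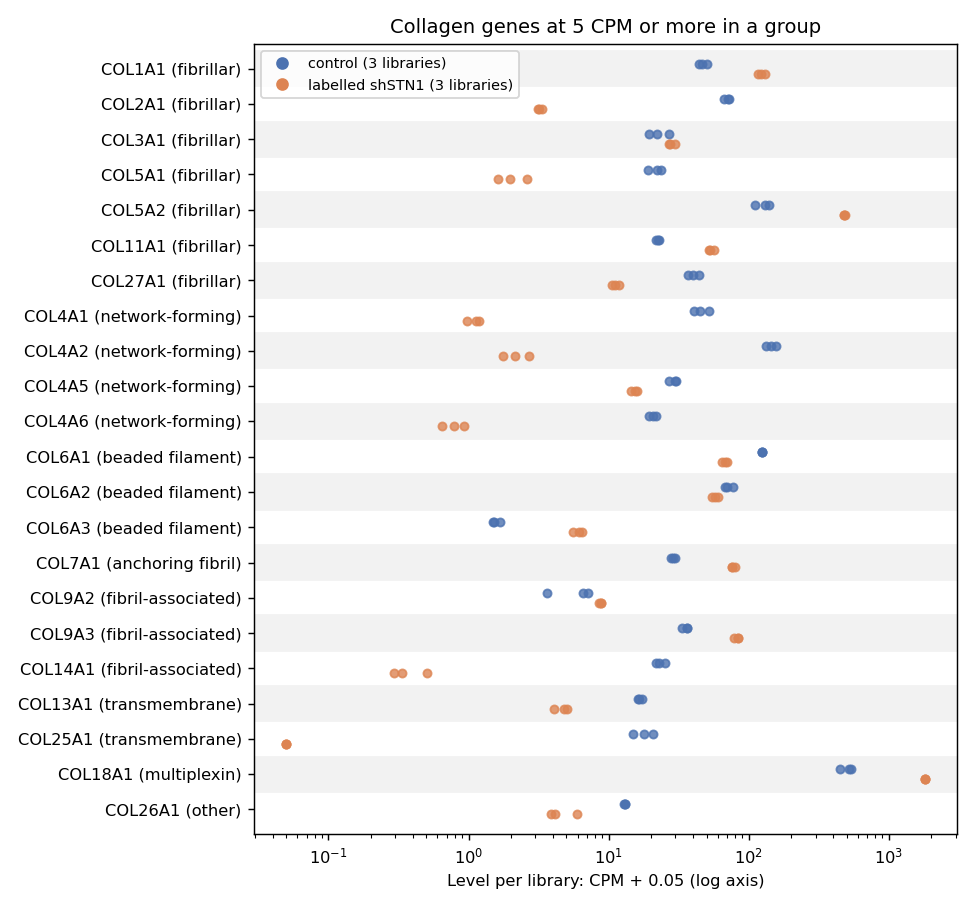
Level in each library (CPM + 0.05, log axis) of the 22 collagen genes at 5 CPM or more in at least 1 group; control and shSTN1-labelled libraries are in separate colours, 3 points each. The groups do not overlap for any of the 22 genes, with COL3A1 the closest pair and COL25A1 at 0 reads in the shSTN1-labelled libraries.

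Summed by type, collagen I, III, V, VII, IX, XI and XVIII had higher levels and II, IV, VI, XIII, XIV, XXV, XXVI and XXVII lower levels in the shSTN1-labelled libraries, among types at 5 CPM or more in a group, without overlap between the groups. For type III the groups nearly met, at 27.02 CPM in control replicate 2 and 27.03 CPM in shSTN1 replicate 2. Type V stood at 149 ± 14.7 against 487 ± 3.97 CPM, type VI at 199 ± 5.07 against 131 ± 5.67 CPM, and type IX at 41.2 ± 3.30 against 90.4 ± 3.10 CPM. Within types IV, V and VI the chains did not keep their proportions, as the ratios above show. Type XI shifted too, with COL11A1 per length at 5.75 times COL11A2 in control and 12.5 times in the shSTN1-labelled libraries.

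The genes that build, process, bind and degrade collagen were taken from lists written with earlier results of these data known, and no list as a whole was tested. Over all genes tested, 74.1% passed, 35.6% higher and 38.5% lower, with a median log2 fold change of -0.03, and the counts below are descriptions beside those shares. Prolyl and lysyl hydroxylases and the glycosyltransferases modify the chains in the endoplasmic reticulum. Of 14 such genes, 9 were higher, 2 lower and 3 did not pass, with a median log2 fold change of 0.27. P3H2, which hydroxylates prolines of basement membrane collagen, rose from 9.87 ± 1.41 to 71.4 ± 4.43 CPM (edgeR adjusted p = 4.45e-22). P4HB, the shared subunit of prolyl 4-hydroxylase, rose by 1.06 on the log2 scale, and the lysyl hydroxylase genes PLOD2 and PLOD3 by 0.89 and 0.84. The lower members were CRTAP (-0.65) and COLGALT2 (-1.30).

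Folding and export of the bulky procollagen need their own chaperones and cargo receptors. Of 13 genes, 6 were higher, 6 lower and 1 did not pass (median -0.02). The export receptor gene MIA3 fell from 71.9 ± 3.64 to 33.2 ± 1.39 CPM (a log2 change of -1.11 with edgeR adjusted p = 6.53e-14), and SEC24D, a coat component, fell by 1.07. PREB fell by 0.52 and the proline isomerase gene PPIB rose by 0.50. SERPINH1, the collagen chaperone HSP47, rose by 0.34.

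Other enzymes trim the propeptides and cross-link the fibres. Of 17 genes, 3 were higher, 9 lower, 3 did not pass and 2 were not tested (median of those tested -0.50). PXDN, the peroxidase that cross-links type IV collagen, fell from 68.1 ± 1.77 to 8.05 ± 0.350 CPM (a log2 change of -3.08 with edgeR adjusted p = 1.54e-23). ADAMTS2, the N-propeptidase of fibrillar procollagen, fell by 4.10 and LOXL3 by 2.76, whereas LOXL2 rose by 1.54.

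Collagen receptors carry signals from the matrix into the cell. Of 14 genes, 9 were higher, 1 was lower, 1 did not pass and 3 were not tested (median of those tested 1.64). The receptor tyrosine kinases for collagen went in opposite directions. DDR1, the epithelial member, rose from 88.6 ± 5.10 to 231 ± 8.42 CPM (a log2 change of 1.38 with edgeR adjusted p = 9.28e-19). DDR2, the mesenchymal member, fell from 15.6 ± 0.401 to 0.333 ± 0.211 CPM (-5.52, edgeR adjusted p = 9.58e-20). CD44 rose by 1.97, and ADGRG6, an adhesion receptor that can bind type IV collagen, by 1.64.

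Genes of collagen breakdown were higher in 7 of 15 cases, lower in 1, not past the threshold in 2 and not tested in 5 (median of those tested 0.98). The gelatinase gene MMP2 rose from 44.2 ± 1.73 to 101 ± 2.79 CPM (edgeR adjusted p = 1.19e-15), the collagenase gene MMP1 from 0.300 ± 0.128 to 7.73 ± 0.241 CPM (edgeR adjusted p = 2.14e-16), CTSB by 1.00 and MMP14 by 1.09 on the log2 scale. Of 22 collagen-binding matrix protein genes, 2 were higher, 5 lower, 6 did not pass and 9 were not tested (median of those tested -0.17). PCOLCE (-0.50) is also in the list of propeptide trimming and cross-linking, and was counted as lower in both. SPARC (-5.06), NID2 (-4.19) and FN1 (-2.14) fell and THBS1 (2.42) rose. NID1, the nidogen that joins laminin to type IV networks, was at 370 ± 30.2 and 366 ± 7.54 CPM (a log2 change of -0.01 with edgeR adjusted p = 0.864).

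**Figure D5:**
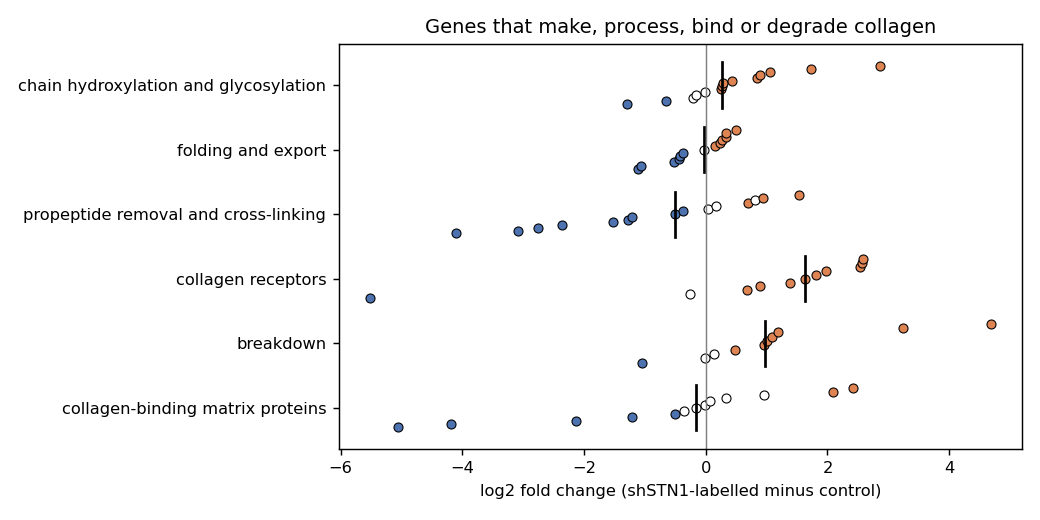
Log2 fold change (shSTN1-labelled minus control, edgeR) of each tested gene in the 6 lists; filled points passed the adjusted p of 0.05 (orange higher, blue lower), open points did not, and black bars are list medians. Receptors and breakdown genes lie mainly to the right of 0, with medians of 1.64 and 0.98, and processing and cross-linking genes mainly to the left, with a median of -0.50.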

How the data were processed

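The deposited values are raw counts of reads for each gene, as whole numbers. STAR 2.7.2b, featureCounts 2.0.1, cutadapt and FastQC, and the build GRCh38, are named per the submitters' processing notes. Annotation release and strand setting: not given in the sources used here. Of 60668 rows, 45 second copies of pseudoautosomal genes were left out. No column of values was left out. All genes were fitted together with edgeR 4.0.16 (R 4.3.3): filterByExpr, TMM scaling, the robust quasi-likelihood test over all 6 libraries without covariates, and Benjamini-Hochberg adjustment over 17451 genes, threshold 0.05. CPM used TMM-scaled library sizes, values after ± are SDs over 3 libraries, and lengths (union of exons) and coordinates came from GENCODE 29. Union lengths understate per-length levels of genes with many transcripts. The collagen members and lists were chosen with earlier results of these data known.

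Every member at 5 CPM or more in a group was named with its reads, members from 1 to 5 CPM with fold changes or means, and up to 4 genes per list by smallest adjusted p. Other genes named (SERPINH1, CRTAP, NID1, COLGALT2, PCOLCE, SLC19A1, single markers and members under 1 CPM) were chosen after their values were seen. Neighbours within 1 Mb were counted for all 44 members and are given for a few, picked without a rule set beforehand. Alternatives were RLE and upper-quartile scaling, 2 other filters, DESeq2 1.42.0, limma-voom (limma 3.58.1), a replicate block and leaving out each library. Tested on simulated data (17027 genes, 50 changed per fold size), the edgeR fit found 78% of 1.5-fold and 88% of 2-fold changes, with 2.70% of its 185 calls false. Few genes were changed in that simulation, whereas 74.1% of genes passed in the real data, so these rates need not hold for the real comparison. No replicate pair matched within sampling noise (chi-square over its degrees of freedom was 3.04 to 9.04). Bounds and intervals cover counting error only.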

Additional observations from a re-analysis of the deposited data

How the results depend on the processing

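Over the alternatives run, 11 to 14 collagen genes were higher and 17 to 21 lower, with 12074 to 13901 genes called in all. The lowest counts came with the filter of 1 CPM in 3 libraries, which tests fewer genes. It left out COL5A3, COL6A5, COL6A6 and COL17A1, which were called as reported. All 37 tested members kept their direction under every alternative that tested them, and among these the calls that changed were those of COL3A1, COL5A3, COL9A2 and COL12A1, given in the report. Members not tested as reported were called by edgeR under alternatives whose filter kept them: COL8A1 lower with no filter and without control replicate 3 or any 1 shSTN1 replicate, COL10A1 higher with no filter and without control replicate 1, control replicate 2 or shSTN1 replicate 1, and COL20A1 lower without shSTN1 replicate 2 (adjusted p = 0.0460). The 2 log2 difference values of the share of reads on collagen genes that moved were 0.64 on the per-length scale and -0.054 without COL18A1 (chosen after seeing the data), against 0.79 as reported; leaving out 1 library gave 0.74 to 0.83. Hydroxylation and glycosylation genes called lower numbered 2 to 4 over the left-out libraries, with 4 without control replicate 1 or shSTN1 replicate 1. Folding and export genes called higher numbered 4 to 6. Genes of the lists that did not pass reversed near 0 without single libraries: CTSL to 0.0012 (shSTN1 replicate 3), COLGALT1 to 0.039 (control replicate 3) and 0.0053 (shSTN1 replicate 2), TNXB to 0.024 and SEC23A to 0.052 (shSTN1 replicate 1), MATN1 to -0.16, -0.074 and -0.016 (control replicates 1 and 2, shSTN1 replicate 3) and NID1 to 0.035, 0.0013 and 2.84e-04 (control replicate 2, shSTN1 replicates 1 and 2). Their values farthest the other way, with 1 library left out, were -0.051, -0.090, -0.26, -0.099, 0.49 and -0.084 for CTSL, COLGALT1, TNXB, SEC23A, MATN1 and NID1. The replicate block gave 13 collagen genes higher and 19 lower and 12742 genes in all, of which 12710 were also called without it, and changed no call of a member. Same-numbered libraries did not deviate together (correlations of -0.012, 0.017 and -0.034). With 3 libraries per group this cannot show whether they share a batch, and the labels state none. Members with few reads, such as COL1A2, are limited by depth.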
